A study of Mus musculus with 2 samples.

Results

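The regions described here are the nuclear bins that were ligated to the mitochondrial genome in liver. The autosomes of the mouse were divided into 49264 bins of 50 kb, and a bin was chosen by its count of contacts with the single bin that holds the mitochondrial chromosome, chrM. The members are the 3221 autosome bins with at least 3 such contacts when both libraries were added, which is 6.54% of all autosome bins and 6.71% of the 47979 that had any contact between nuclear chromosomes. Because the members were selected on these counts, their contacts with chrM are given as a description with no test.

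The contacts come from Foxa2 HiChIP in wildtype mouse liver. The GW4064 library is from mice that received the FXR agonist GW4064 once by oral gavage, and the vehicle library is from mice that received only its solvent, propylene glycol with Tween 80. Both were collected 4 h after gavage. No source used here gives the age or sex of the mice, the dose, or whether animals were pooled. FXR is the nuclear receptor for bile acids, and Foxa2 is a forkhead pioneer factor of liver. HiChIP joins chromatin fragments that lie close together by ligation and then recovers the ligated DNA with an antibody, here an antiserum against Foxa2, so each contact is a pair of DNA ends that were ligated and recovered.

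With 1 library a group there is no replicate, every difference compares these libraries and not the conditions, and all intervals are 95% intervals for counting error only. The GW4064 library held 29003442 contacts and the vehicle library 22686004. In the check of the labelled tissue, the median same-bin contact count at 10 hepatocyte marker genes was 0.938 times that of the median autosome bin in the GW4064 library and 1.18 times in the vehicle library, against 1.20 and 1.05 times at 5 neuronal markers and 0.682 and 0.885 times at 5 skeletal muscle markers, so these contacts did not set hepatocyte genes apart.

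Mitochondria keep a small circular genome outside the nucleus, in many copies per cell, and liver cells are rich in them. The gene table for this build places 37 genes on its 16299 bp, of which 13 code for proteins of the respiratory chain and of ATP synthase, 22 for tRNAs and 2 for rRNAs. All other mitochondrial proteins are encoded in the nucleus and imported. Pieces of mitochondrial DNA have also been copied into nuclear chromosomes during evolution. These nuclear copies, called numts, can resemble chrM closely, so short reads from one can be placed on the other. Mitochondrial and nuclear DNA are kept apart by membranes in an intact cell, and contacts between them in proximity ligation data are often used to gauge ligation between molecules that were not neighbours.

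The kit that made these libraries cuts DNA at GATC and GANTC, and the cut ends are what is ligated. To show what such ends look like, the promoter windows of a pair of liver genes in bins far above the number expected are printed 5′ to 3′ on the gene's own strand, from 250 bases before to 50 bases after the RefSeq start (GRCm38.p6, the assembly also called mm10), with each GATC or GANTC in capitals. Nr1h4 encodes FXR itself and lies on the minus strand, with its window at chr10:89506609-89506908. The gene spans 89454234 to 89533645, so this window is at a start inside the gene and not at its outermost one. Slco1b2 encodes an organic anion uptake transporter of hepatocytes, lies on the plus strand at chr6:141629268-141629567, and was chosen after its values were seen.
Nr1h4: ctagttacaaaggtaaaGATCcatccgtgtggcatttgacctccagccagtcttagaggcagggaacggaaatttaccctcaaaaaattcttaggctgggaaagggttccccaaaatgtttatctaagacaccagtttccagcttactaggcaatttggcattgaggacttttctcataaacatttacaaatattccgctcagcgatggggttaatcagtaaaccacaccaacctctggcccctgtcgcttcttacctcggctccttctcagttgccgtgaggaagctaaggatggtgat
Slco1b2: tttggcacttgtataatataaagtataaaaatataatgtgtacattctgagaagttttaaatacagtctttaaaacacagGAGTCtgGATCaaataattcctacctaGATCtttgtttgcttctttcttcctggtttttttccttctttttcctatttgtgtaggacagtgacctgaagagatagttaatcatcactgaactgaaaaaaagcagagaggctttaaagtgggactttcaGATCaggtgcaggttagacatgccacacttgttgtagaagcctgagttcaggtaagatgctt

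The Nr1h4 window holds 1 site and the Slco1b2 window 4. Both motifs are palindromes and were searched on both strands, and neither contains the other. Of 32851 promoter windows of the same length, 79.8% held at least 1 site, 48.0% a GATC and 61.5% a GANTC, the median was 1 site, and 9.0% held 4 or more. The Slco1b2 window is therefore among the windows with the most sites and the Nr1h4 window is at the median. The matches describe these windows and not the whole of each bin. No mm10 genome sequence was used here, so neither chrM nor a nuclear copy of it could be printed or searched.

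The mitochondrial bin was heavily covered and ligated mostly to itself. It took part in 71444 contacts in the GW4064 library and 52449 in the vehicle library, where the median autosome bin took part in 1019 and 806. Contacts within the chrM bin numbered 50400 in the GW4064 library and 31073 in the vehicle library. Contacts that joined chrM and an autosome numbered 20412 in the GW4064 library and 20867 in the vehicle library. The 2 libraries thus held similar numbers of chrM-to-autosome contacts although the GW4064 library was the deeper one.

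Of all contacts, the share that joined chrM and an autosome was 0.0704% (exact Clopper-Pearson interval 0.0694 to 0.0713%) in the GW4064 library and 0.0920% (0.0907 to 0.0932%) in the vehicle library, a ratio of 0.765 (exact conditional binomial interval 0.750 to 0.780). The size of this difference depended on the denominator. Contacts between nuclear chromosomes, here called trans contacts, were also a smaller share of the GW4064 library, at 18.4% against 22.4% in the vehicle library. Relative to trans contacts, the ratio of chrM-to-autosome contacts was 0.931 (0.913 to 0.949). Relative to the contacts within chrM it was 0.603 (0.592 to 0.615), because contacts within chrM were 1.27 times (1.25 to 1.29) as large a share of all contacts in the GW4064 library as in the vehicle library. The chrM bin sent 29.5% of its contacts to other chromosomes in the GW4064 library and 40.8% in the vehicle library. Autosome bins sent 21.3% and 25.6%, but these values are not counted like those of chrM. A contact between different bins of an autosome counts in each of those bins, whereas chrM is a single bin. All 3 ratios lie below 1. What sets them was not tested, and the treatment and the library cannot be told apart.

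Contacts with chrM were thin and spread over the whole genome. In the GW4064 library 16352 autosome bins, or 33.2%, had at least 1, and in the vehicle library 16318 bins, or 33.1%. Of the 3221 members, 2339 (72.6%) had exactly 3 contacts, 656 had 4 and 226 had 5 or more, and the highest count was 13. Just outside the rule lay 6882 bins with 2 contacts. The members therefore form the upper tail of a continuous distribution, with most of them at its edge. They held 10871 of the 41279 contacts between chrM and autosomes, or 26.3%. Of these, 5216 were in the GW4064 library and 5655 in the vehicle library. Contacts in both libraries were present in 2507 members, contacts in the GW4064 library alone in 310, and contacts in the vehicle library alone in 404. The rule adds the libraries, so most members would have contacts in both even if each contact fell in either library independently. This split is therefore no measure of agreement between the libraries.

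The number expected in a bin was set from its trans contacts: the library's chrM-to-autosome contacts times the bin's share of all autosomal trans contacts, chrM left out. If counts scattered around these numbers only as Poisson counts do, 2909 bins would reach 3 contacts, against the 3221 found. Further out the observed numbers were 226 bins at 5 or more, where Poisson scatter gives 135, and 63 bins at 6 or more, where it gives 27.6. Over all 47979 bins the mean was 0.860 contacts and the variance 0.982. Relative to Poisson scatter the excess was small at 3 contacts and larger at 5 and 6, over both libraries. In the GW4064 library alone 3 bins had 6 or more contacts, where Poisson scatter gives 2.90. Of this number 1.54 falls at 9 or more contacts, which no bin reached, and rests on a few bins with very many trans contacts. At exactly 7 contacts Poisson scatter gives 0.272 bins and at exactly 8 it gives 0.191, where 1 bin each was found.

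**Figure D1:**
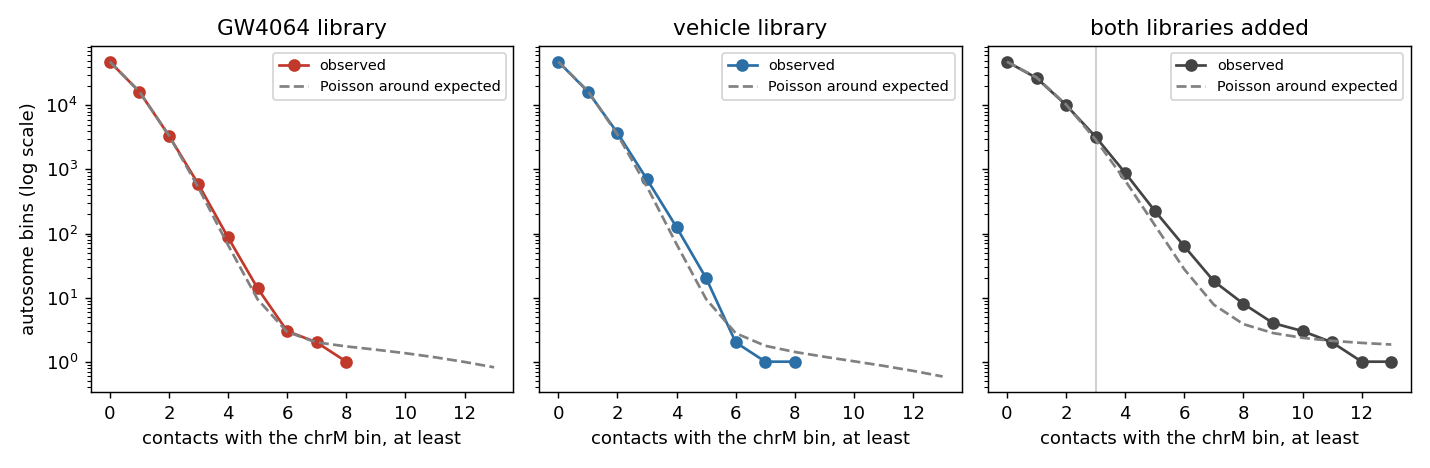
Number of autosome bins (vertical axis, log scale) with at least the given number of contacts with the chrM bin (horizontal axis), in the GW4064 library, the vehicle library and both added. Points are observed numbers, dashed lines are the numbers that Poisson counts around the expected number of each bin give, and the grey line marks the 3 contacts that define a member, which 3221 bins reached against 2909 from Poisson counts. Beyond 7 contacts the dashed lines rest on a few bins with very many trans contacts.

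The other library is the only measurement that did not take part when bins are chosen in 1 library. The 583 bins with 3 or more contacts in the GW4064 library had 398 contacts in the vehicle library, where 293 were expected, a ratio of 1.36 (1.23 to 1.497). The 698 bins with 3 or more contacts in the vehicle library had 423 contacts in the GW4064 library, where 326 were expected, a ratio of 1.30 (1.18 to 1.43). Bins with no contact in the GW4064 library were at 0.967 times the expected number in the vehicle library, and bins with none in the vehicle library at 0.953 times in the GW4064 library. A high count in 1 library thus went with a modest excess in the other. For bins with 4 or more contacts the ratio in the other library was 1.61 (1.29 to 1.98) for bins chosen in the GW4064 library and 1.53 (1.24 to 1.86) for bins chosen in the vehicle library. These ratios were lower when the expected number was also matched to gene density, defined below. Bins with 3 or more contacts were then at 1.25 (1.13 to 1.38) when chosen in the GW4064 library. When chosen in the vehicle library they were at 1.17 (1.06 to 1.28). For bins with 4 or more contacts the matched ratios were 1.45 (1.16 to 1.78) and 1.37 (1.11 to 1.66). Across all bins the correlation of the counts of the libraries was weak, with Pearson's r = 0.060 and Spearman's rho = 0.043 over 47979 bins that share their coverage and base composition.

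Members had slightly more trans contacts than other autosome bins, but the number of contacts with chrM rose much less than in proportion. The median was 428 trans contacts, both libraries added, in members and 411 in other bins. All contacts of a bin had a median of 1728 in members and 1832 in other bins, and same-bin contacts a median of 267 and 270. The bins were divided into 10 classes of equal size by trans contacts. From the class with the fewest to the class with the most, the mean number of contacts with chrM went up from 0.617 to 0.964 per bin and the share of members from 3.48% to 8.44%. The ratio of observed to expected contacts went down over the same range, from 1.21 (1.17 to 1.25) to 0.773 (0.750 to 0.795). Bins with many trans contacts therefore had more contacts with chrM but fewer than their trans contacts would give. Across bins, contacts with chrM and trans contacts correlated with r = 0.108 and rho = 0.079. Within single chromosomes rho lay between -0.11 and 0.16 and was above 0 on 16 of 19.

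The clearest case is a set of 8 bins with over 5 times the median of 412 trans contacts. Of these, 6 are members, yet together they had 0.457 times (0.318 to 0.635) the expected contacts with chrM. The bin at chr11:3150001-3200000, which holds Sfi1, the gene of a centrosomal protein, had 13407 trans contacts, or 32.5 times the median. It had 5 contacts with chrM in the GW4064 library and 3 in the vehicle library, where 27.6 were expected in all, a ratio of 0.290 (0.125 to 0.572). The bin at chr12:3100001-3150000, with no protein-coding gene, had 3 contacts in the GW4064 library and 5 in the vehicle library where 16.1 were expected, a ratio of 0.496 (0.214 to 0.977). Both are members by the rule and are among those with the most contacts, but lie below the number that their coverage gives.

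The feature that members shared most clearly, and which the rule did not use, was gene density. Gene density was taken as the number of protein-coding genes that overlap the 21 bins centred on a bin, a choice made after the data were seen. The median was 11 genes around members and 6 around other bins, and 54.6% of members but 33.0% of other bins had at least 10. A protein-coding gene overlapped 75.9% of members and 57.0% of other bins. Bins just inside the rule, with exactly 3 contacts, had a median of 10 genes, and bins just outside it, with 2, had 8. Gene-rich surroundings thus became more frequent step by step with the number of contacts.

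In each library the contacts with chrM, relative to the number expected from trans contacts, rose through the 5 classes of gene density. Bins with 20 or more genes around them had 1.35 times (1.30 to 1.40) the expected contacts in the GW4064 library and 1.40 times (1.35 to 1.44) in the vehicle library. Bins with no gene around them had 0.763 times (0.721 to 0.806) in the GW4064 library and 0.728 times (0.685 to 0.773) in the vehicle library. The share of members was 12.1% in the first class and 2.03% in the second. The intervals of these classes do not overlap in either library. Spearman's rho between the ratio of a bin and its gene density was 0.16 over the 47612 bins with at least 100 trans contacts, and it was above 0 on all 19 autosomes, from 0.063 to 0.302. Members differed in another measure too: trans contacts made up a median of 25.9% of the contacts of members and 23.8% of those of other bins. The part of this measure and of cut-site density, base composition or open chromatin in the pattern was not tested.

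**Figure D2:**
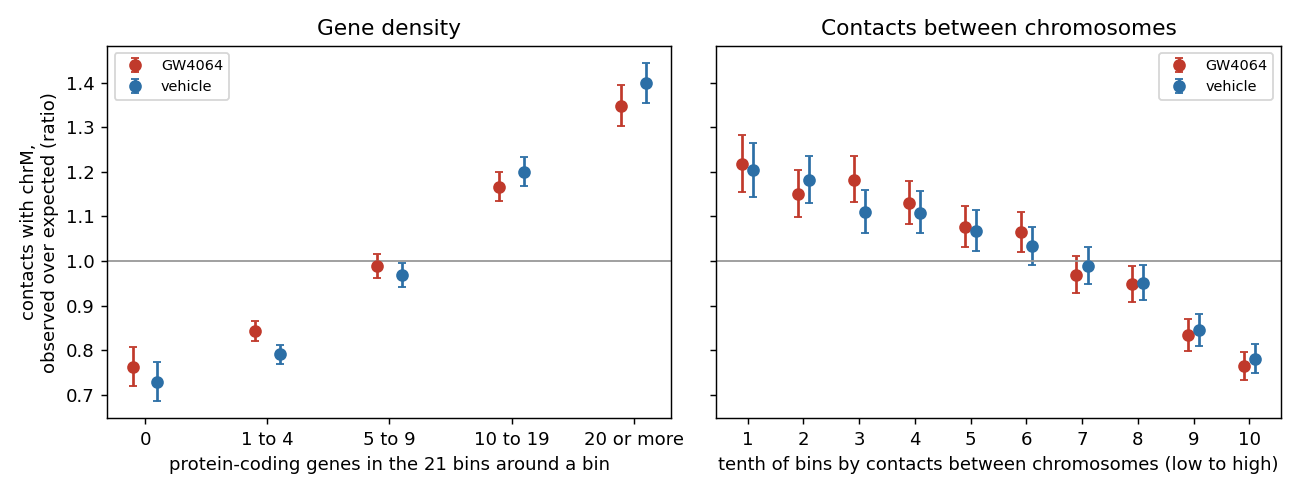
Contacts with chrM divided by the number expected from trans contacts (vertical axis, ratio), by protein-coding genes in the 21 bins around a bin (left) and by 10 classes of bins ordered by trans contacts (right), with exact 95% Poisson intervals that cover counting error only. Red points are the GW4064 library and blue points the vehicle library; the ratio climbs with gene density, to 1.35 and 1.40 in the gene-richest class, and falls with trans contacts.

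The libraries differed a little along this axis. Scaled to the chrM-to-autosome contacts of each library, contacts in bins with no gene around them had a ratio of GW4064 over vehicle of 1.16 (1.07 to 1.26), and contacts in bins with 20 or more genes a ratio of 0.876 (0.835 to 0.918). Trans contacts of the same bins, scaled to their own totals, gave 1.11 and 0.909. The shift of chrM contacts towards gene-poor bins in the GW4064 library was therefore seen in trans contacts as well. Its cause was not tested.

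Members were also more frequent close to other members and less frequent near the centromere. Bins 50 kb from a member had 1.27 times the expected contacts with chrM. Of these bins 11.8% were members themselves, against 6.71% of all autosome bins with a trans contact. At 250 kb the ratio was 1.21, at 500 kb 1.19 and at 1000 kb 1.10, where 8.43% were members. When the expected number was also matched to the class of gene density, the ratio was 1.16 at 50 kb, 1.10 at 500 kb and 1.04 at 1000 kb. The excess near members was thus smaller after matching and fell with distance. When each chromosome was cut into 5 stretches of equal length, members were 5.76% of the bins in the stretch next to the centromere and 8.13% in the one at the far end. Relative to trans contacts, the stretch next to the centromere had 0.833 times (0.815 to 0.852) the expected contacts, the next one 0.983 times (0.961 to 1.01), and the other 3 were at 1.06, 1.07 and 1.07 times. The stretch next to the centromere also had the most trans contacts, with a median of 464 per bin against 421 at the far end.

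All 19 autosomes held members, from 5.59% of the bins of chromosome 3 to 9.78% of those of chromosome 19, with 9.47% on chromosome 11. Chromosomes 19 and 11 are gene-rich, with 1.09 and 1.15 protein-coding genes per bin against 0.654 on chromosome 3, but chromosome 7, with 1.13, had 5.88% members. Contacts with chrM per bin ran from 0.785 on chromosome 14 to 1.03 on chromosome 11. Their correlation with genes per bin over the 19 chromosomes was r = 0.639 and rho = 0.588, as a description of chromosomes that share libraries and depth. Every chromosome was thus reached at a similar rate, with a tilt towards those with more genes.

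Relative to trans contacts the order was a different one. Chromosome 2 stood highest, at 1.18 times (1.13 to 1.24) the expected number in the GW4064 library and 1.16 times (1.10 to 1.21) in the vehicle library. Chromosome 16 stood lowest, at 0.763 times (0.710 to 0.820) in the GW4064 library and 0.820 times (0.765 to 0.878) in the vehicle library. With both libraries added, the intervals of 8 chromosomes lay above 1 and of 7 below, and 15 of 19 chromosomes were on the same side of 1 in both libraries, with r = 0.845 between them. This order moved with the length of the chromosomes and with how the expected number was set. Trans contacts per bin ran from 366 on chromosome 2 to 513 on chromosome 19 and fell with the number of bins of a chromosome (r = -0.92), while the observed-to-expected ratio rose with it (r = 0.677, rho = 0.749). With all contacts of a bin in place of trans contacts, the ratio of chromosome 2 to chromosome 16 was 1.09, and with the same number expected in each bin 1.06, against 1.48 from trans contacts.

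**Figure D3:**
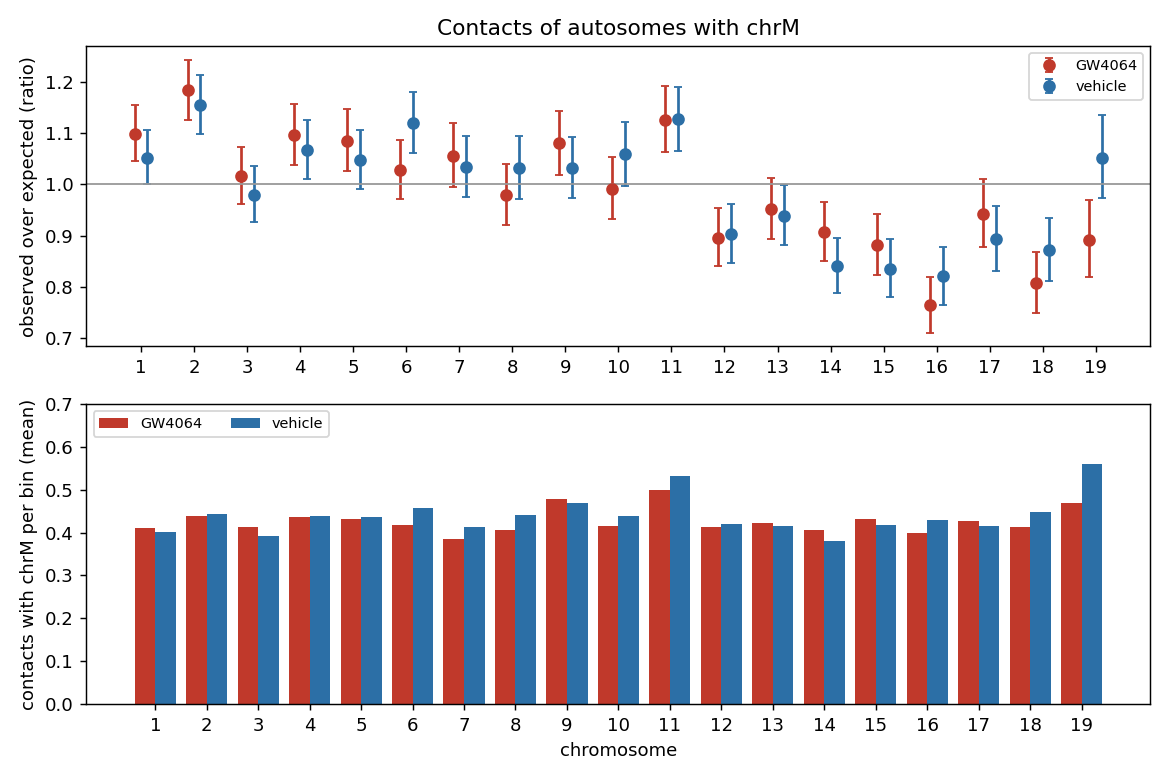
Contacts with chrM on the 19 autosomes. Above, the ratio to the number expected from trans contacts with exact 95% Poisson intervals for counting error; below, the mean number of contacts per bin. Red is the GW4064 library and blue the vehicle library; chromosome 2 stands highest in the ratio, at 1.18 and 1.16, and chromosomes 11 and 19 in contacts per bin.

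Few bins stood far above the number expected from trans contacts. A bin was called far above in a library when it had at least 5 contacts with chrM there and at least 5 times the expected number. In the GW4064 library 12 bins on 10 chromosomes met this, or 0.025% of those measured, and in the vehicle library 19 bins on 14 chromosomes, or 0.0396%. Poisson scatter around the expected numbers would give 6.24 in the GW4064 library and 6.30 in the vehicle library. At these limits 2 bins were far above in both libraries and 27 in one alone. With a minimum of 3 contacts in place of 5, 535 of the 47979 bins were far above in the GW4064 library and 651 in the vehicle library, 20 of them in both. At 10 times the expected number 8 bins were far above in the GW4064 library and 11 in the vehicle library, 1 of them in both. The overlap that independent libraries would give was not calculated. The median bin had 0.418 contacts expected in the GW4064 library and 0.433 in the vehicle library, so a handful of contacts is enough to meet the criterion.

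The 12 bins far above in the GW4064 library had 26 contacts in the vehicle library where 5.82 were expected, a ratio of 4.47 (2.92 to 6.55). Of these 12, 2 had no contact in the vehicle library. Without the bin with the most contacts the ratio was 3.40 (2.02 to 5.38). The 19 bins far above in the vehicle library had 16 contacts in the GW4064 library where 8.57 were expected, a ratio of 1.87 (1.07 to 3.03), and 12 of them had none. Without the bin with the most contacts this ratio was 1.36 (0.677 to 2.43), an interval that includes 1. When matched to gene density, the ratio was 4.00 for the 12 bins and 1.74 for the 19 bins. Of the 12 bins chosen in the GW4064 library 83.3% had a contact in the vehicle library, against 33.1% of all autosome bins. Of the 19 chosen in the vehicle library 36.8% had a contact in the GW4064 library, which is near the 33.2% of all autosome bins. The difference between the sets was not tested.

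The bin with the most contacts, which also had the highest ratio over both libraries of the bins far above, lies at chr1:24600001-24650000 and holds a pseudogene annotated with a mitochondrial name. It had 5 contacts with chrM in the GW4064 library and 8 in the vehicle library, where 0.457 and 0.529 were expected, for a ratio of 13.2 (7.01 to 22.5) over both. Its trans contacts, 478 in all, were near the median of 412. No protein-coding gene overlaps it. It holds the pseudogenes Gm10222, at 24612404 to 24612700, and Gm10925, at 24613971 to 24614651. Gm10925 carries the synonyms mt-Atp6 and Mtatp6 in the gene table and is the only nuclear pseudogene there with the name of a chrM gene among its synonyms.

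The lengths and spacing of the pair follow those of chrM genes. Gm10925 is 681 bp long, as is ATP6 on chrM, which encodes a subunit of ATP synthase. Gm10222 is 297 bp long, as is ND4L, which encodes a subunit of respiratory complex I. The gap between ATP6 and ND4L on chrM is 1269 bp and that between Gm10222 and Gm10925 is 1270 bp, with the order on chromosome 1 reversed. In length and spacing the pair thus matches a nuclear copy of this stretch of chrM, and Gm10925 matches in name as well. Gm10222 carries no such synonym, and the sequences were not compared. Whether reads counted in this bin came from chrM or from the nuclear pair was not tested, and the counts do not show it.

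Within 1000 kb the excess was found in that bin alone. The 40 bins up to 1000 kb away on either side had 15 contacts in the GW4064 library and 21 in the vehicle library, 36 in all where 34.2 were expected, a ratio of 1.05 (0.737 to 1.46). None of them had more than 3 contacts. The 10 nearest bins had 10 contacts where 9.23 were expected, 5 in each library. The profile thus falls to the expected level within 1 bin on either side.

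**Figure D4:**
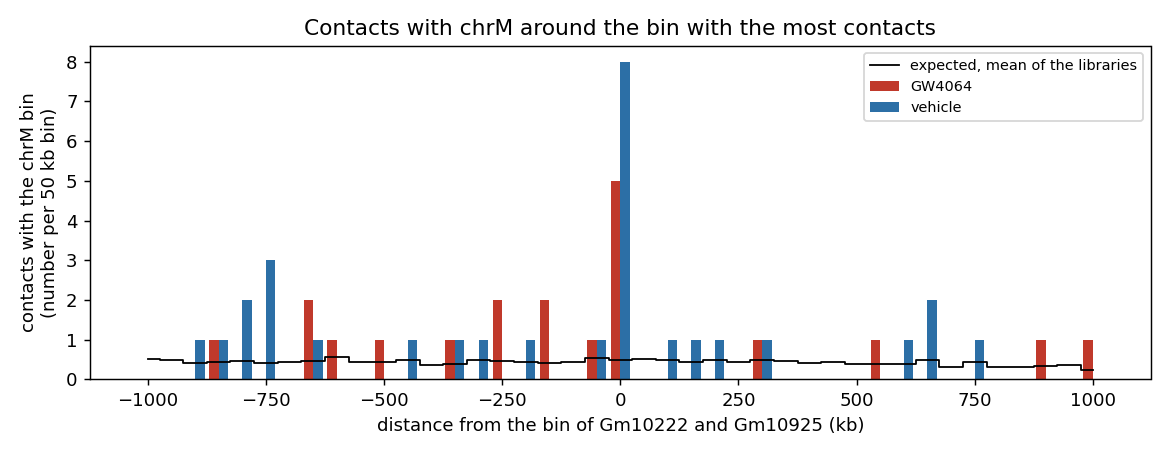
Contacts with chrM in each 50 kb bin (vertical axis, number) by distance in kb from the bin of Gm10222 and Gm10925 (horizontal axis). Red bars are the GW4064 library, blue bars the vehicle library, and the black line is the expected number, as the mean of the libraries; the central bin has 5 and 8 contacts and no other bin has more than 3 in a library.

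Because Gm10925 is the only pseudogene so named, names could not mark a nuclear copy of chrM in any other bin far above. Their sequences were not searched for one. The bin of Adk at chr14:21150001-21200000, the gene of adenosine kinase, is the other one far above in both libraries, with 5 contacts in the GW4064 library and 5 in the vehicle library where 1.53 were expected in all, a ratio of 6.53 (3.13 to 12). The bin at chr10:89500001-89550000, which holds the start of Nr1h4, had 5 contacts in the GW4064 library and 3 in the vehicle library, a ratio of 10.2 (4.41 to 20.1). The bin of Scp2, a sterol carrier protein, at chr4:108050001-108100000 also had 5 in the GW4064 library and 3 in the vehicle library, a ratio of 8.32 (3.59 to 16.4). These 3 bins had contacts in both libraries well above the single contact or none that is usual. They were picked for their high counts, so this is a description only.

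In most of the others 1 library supplied nearly all contacts. The criterion favours this, because it asks for at least 5 contacts in 1 library and leaves out bins whose contacts are split evenly below that. The bin at chr11:101600001-101650000, which holds Rdm1, a gene of a RAD52 motif protein, and LOC666331, had 8 contacts in the GW4064 library and 1 in the vehicle library, a ratio to expected of 11.6 (5.30 to 22.0). The bin at chr12:78200001-78250000, with Gphn, the gene of the scaffold protein gephyrin, and Gm6657, had 6 in the GW4064 library and 1 in the vehicle library. The bin at chr4:101350001-101400000, with the pseudogene Gm12795, had 5 in the GW4064 library and 1 in the vehicle library. In the opposite sense, the bins of Slc38a4, an amino acid transporter of liver, and of Pknox1, a homeobox transcription factor, each had 1 contact in the GW4064 library and 5 in the vehicle library, and the bin of Fggy, a carbohydrate kinase, had 2 and 5. A bin at chr5:139850001-139900000, with no listed protein-coding gene, pseudogene or long noncoding RNA gene, had 0 in the GW4064 library and 5 in the vehicle library. Slco1b2 had 5 contacts in the GW4064 library and 2 in the vehicle library, and Nr1d2, the gene of a circadian nuclear receptor that was also chosen after its values were seen, had 5 and 0.

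**Figure D5:**
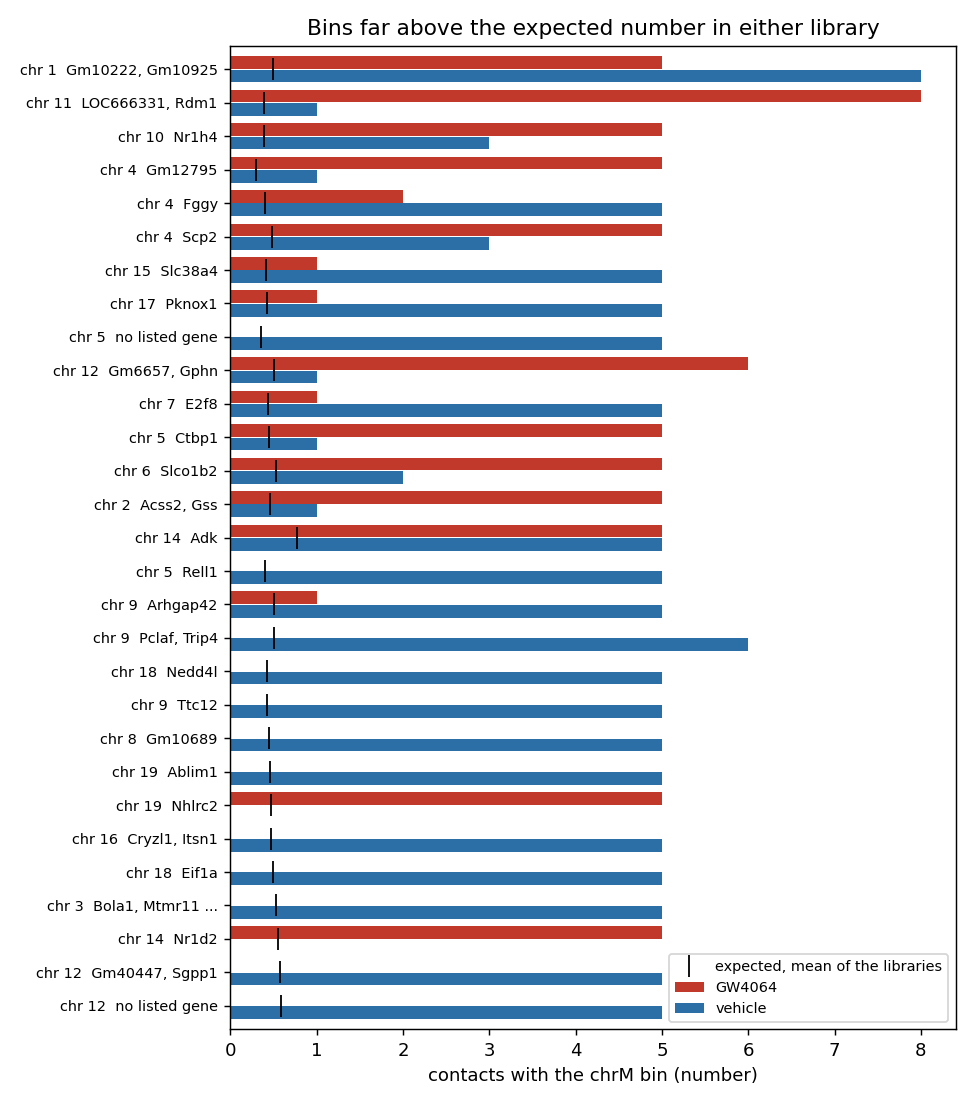
Contacts with the chrM bin (horizontal axis, number) in the 29 bins far above the expected number in at least 1 library, named by chromosome and by genes or pseudogenes, from the highest ratio over both libraries at the top. Red bars are the GW4064 library, blue bars the vehicle library, and black ticks the expected number, as the mean of the libraries; the bin of Gm10222 and Gm10925 and that of Adk reach 5 in both.

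Of the 29 bins far above in either library, 15 (51.7%) had at least 10 genes around them, against 54.6% of members and 33.0% of other bins. Bins next to them had 1.59 times (1.26 to 1.97) the expected contacts, 1.59 in the GW4064 library and 1.58 in the vehicle library. Without the bin on chromosome 1 this was 1.61 (1.28 to 2.00). The share with gene-rich surroundings was thus near that of all members. The excess nearby was not limited to the bins next to the 29. At 2 bins away the ratio was 1.21 (0.933 to 1.54), at 3 bins 1.64 (1.31 to 2.02) and at 10 bins 0.985 (0.738 to 1.29). These ratios were not matched to gene density.

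Among members that were not far above in either library, the bin at chr9:35300001-35350000 had the most contacts, 7 in the GW4064 library and 4 in the vehicle library. It holds no protein-coding gene. With 1978 trans contacts its expected number was 4.05, for a ratio of 2.71 (1.36 to 4.86). Its coverage by trans contacts was thus high as well. The bin at chr11:115400001-115450000, which holds Atp5h, Kctd2, Mrpl58 and Trim80, had 3 contacts in the GW4064 library and 4 in the vehicle library where 0.729 were expected, a ratio of 9.60 (3.86 to 19.8), and fell short of 5 contacts in each library alone.

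Single members could hardly be told apart between the libraries at this depth. A member was counted as different when its contacts, scaled to the chrM-to-autosome contacts of each library, differed at least 2-fold with an interval that excluded 1. Of 3221 members 1 was higher in the GW4064 library (0.031%) and 1 lower (0.031%). The bin of Rdm1 was the higher one, with 8 and 1 contacts and a ratio of 8.18 (1.10 to 363). The bin at chr9:65850001-65900000, which holds Pclaf and Trip4, named after their values were seen, was the lower one, with 0 contacts in the GW4064 library and 6 in the vehicle library. A member with fewer than 6 contacts cannot reach such an interval, so only the 63 members with 6 or more could be counted, and the others were not shown to be alike.

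Nuclear genes of mitochondrial proteins lay in bins with more contacts than their trans contacts gave. The lists used here were chosen with earlier results of these data known and carry no test. The 73 autosomal genes of oxidative phosphorylation lie in 92 bins, of which 16 (17.4%) are members, against 8.75% of all 27937 bins with a protein-coding gene. These bins had 58 contacts with chrM in the GW4064 library, 1.59 times (1.21 to 2.06) the expected number, and 72 in the vehicle library, 1.77 times (1.38 to 2.23). The 78 genes of the mitochondrial ribosome lie in 96 bins with 11 members (11.5%), at 1.52 times (1.15 to 1.96) in the GW4064 library and 1.505 times (1.16 to 1.92) in the vehicle library. The median bin of both lists, as of all bins with a protein-coding gene, had 1 contact.

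The bins of these genes were also gene-rich, with a median of 19 genes around those of oxidative phosphorylation and 18 around those of the ribosome, against 10 around all bins with a protein-coding gene. When the expected number was matched to gene density as well, the ratios over both libraries were 1.37 and 1.24, where they had been 1.69 and 1.51. The 35 autosomal genes of mitochondrial DNA maintenance and expression lie in 69 bins with 8 members (11.6%), at 1.03 times in the GW4064 library and 1.48 times in the vehicle library, and 1.26 times (0.996 to 1.58) over both, an interval that includes 1. With the expected number set from all contacts it was 1.38 times (1.09 to 1.73), and with the same number in each bin 1.297 times (1.02 to 1.62), intervals that do not. When matched to gene density, the ratio of this list over both libraries was 1.14.

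Single genes rest on few contacts. Atp5h, a subunit of the stalk of ATP synthase, and Mrpl58, a hydrolase of the mitochondrial ribosome, share the bin on chromosome 11 named above. Ndufs7, a complex I subunit, had 3 contacts in the GW4064 library and 3 in the vehicle library, and Ndufa6, another, had 3 and 2. Sdhc and Sdhd, membrane anchors of complex II, had 4 and 1 and 2 and 3. Mrpl48, of the large ribosomal subunit, had 6 in the GW4064 library and 4 in the vehicle library over 3 bins, and Mrps27, of the small one, 3 and 3. Among genes of mitochondrial DNA maintenance and expression, the coactivator Ppargc1b had 1 in the GW4064 library and 7 in the vehicle library over 4 bins, and its relative Ppargc1a 5 and 2 over 14 bins, which is 0.575 times (0.231 to 1.18) the expected number. Nrf1, Polg2, Rnaseh1 and Tfb2m had 5 contacts each over both libraries. The genes with the most contacts are in part the long ones, which cover more bins.

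Genes outside the mitochondrial lists were above the expected number too. The 31 autosomal genes of secreted hepatocyte proteins lie in 35 bins with 5 members (14.3%), at 1.48 times the expected number in the GW4064 library and 2.06 times in the vehicle library, or 1.79 times (1.31 to 2.38) over both and 1.48 times when matched to gene density. Plg, the gene of plasminogen, had 6 contacts in the GW4064 library and 1 in the vehicle library, Apoe 2 and 4, and Apoh 1 and 3. The 29 autosomal neuronal genes lie in 261 bins with 10 members (3.83%), at 0.787 times in the GW4064 library and 0.944 times in the vehicle library, or 0.864 times (0.743 to 0.999) over both. Their median bin had 0 contacts, and the median number of genes around their bins was 2. Among the long synaptic genes, Dlg2 had 14 contacts in the GW4064 library and 13 in the vehicle library over 40 bins, Cntnap2 13 and 9 over 46 bins, and Nrg3 9 and 10 over 23 bins. When matched to gene density the ratio of the neuronal list was 0.975. Beside these, all bins with a protein-coding gene were at 1.13 times (1.11 to 1.14) the expected number over both libraries, and the 20042 bins with none at 0.826 times (0.812 to 0.839), with 3.88% members. When matched to gene density, bins with a protein-coding gene were at 1.04 times and bins with none at 0.929 times.

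Of the genes that the study is about, which were taken up after their values were seen, Nr1h4 had 5 contacts in the GW4064 library and 4 in the vehicle library over its 2 bins, 6.09 times (2.79 to 11.6) the expected number. Nr0b2, the FXR target that encodes SHP, had 2 and 2 contacts, a ratio of 4.85 (1.32 to 12.4), and Foxa2 2 and 1, a ratio of 4.24 (0.874 to 12.4). Abcb11, which exports bile salts from hepatocytes, had 3 and 4 over 3 bins, Rxra, the partner of FXR, 0 and 6 over 3 bins, and Cyp7a1, the first enzyme of the classical bile acid pathway, 0 and 1. Scaled to the chrM-to-autosome contacts of each library, the ratio of GW4064 over vehicle had an interval below 1 for Rxra (0 to 0.868) and an interval that included 1 for the other 5 genes.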

How the data were processed

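Per the labels, liver was ligated with a proximity ligation kit and immunoprecipitated with an antiserum against Foxa2. Per the submitters' processing notes, HiC-Pro and Bowtie2 2.2.9 were used on mm10. The sources used here do not give read filters, the handling of duplicates or of reads that fit several places, or whether animals were pooled. Each deposited matrix holds, for every pair of 50 kb bins, a raw contact count with no normalization, and the deposited bin tables hold the bin index. Promoters and genes come from RefSeq tables of GRCm38.p6.

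Counts with the chrM bin were set against the number expected from trans contacts, per library, in the 47979 autosome bins that have any; 1285 have none. With 1 library per group there was no test and no p-value. Intervals are exact Poisson, Clopper-Pearson and conditional binomial intervals at 95%. Genes were placed in every bin they overlap. Members, gene lists and thresholds were chosen with earlier results of these data known. Genes were named if they lie in the 10 bins far above with the highest ratio, in the 5 members with the most contacts, or among the 3 of each list with the most contacts (more where tied); others are stated to be chosen after their values were seen. Calculations in scipy 1.17.1, pandas 2.3.3 and numpy 2.4.6, with plots in matplotlib 3.10.9, ran under Python 3.11.15 and were tested on simulated data. Other settings tried were the contact minimum, the fold, the measure behind the expected number, filters on bins, the denominator of shares and each library alone. The labels give no replicate numbers beyond 1 library a group.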

Additional observations from a re-analysis of the deposited data

Results flagged for a closer look

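Contacts of chrM with chromosome X, which is outside the autosomes described above, numbered 595 in the GW4064 library and 465 in the vehicle library. Scaled to the contacts of chrM with autosomes, the ratio of GW4064 over vehicle was 1.31 (1.16 to 1.48), a signal in data the comparisons did not use. Contacts of X with other nuclear chromosomes, scaled likewise, had a ratio of 1.04. Relative to trans contacts, X was at 0.846 times (0.779 to 0.917) the expected number in the GW4064 library and 0.673 times (0.613 to 0.737) in the vehicle library, below 1 in both. Chromosome Y had 37 contacts in the GW4064 library and 44 in the vehicle library, a ratio of 0.860 (0.540 to 1.36) when scaled like X. Relative to trans contacts, Y was lower than X, at 0.333 times (0.235 to 0.459) in the GW4064 library and 0.400 times (0.290 to 0.537) in the vehicle library. The cause was not tested.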

How the results depend on the processing

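At least 2 contacts gave 10103 members and at least 5 gave 226, against 3221. With a minimum of 3 contacts in a library 535 bins were far above in the GW4064 library and 651 in the vehicle library, 20 of them in both, and with a minimum of 10 there were 0 and 0. At 10 times the expected number 11 were in the vehicle library and 1 in both. The ratio of shares, 0.765, was 0.931 relative to trans contacts and 0.603 relative to contacts within chrM. With the expected number set from all contacts, the ratio was 0.727 for neuronal genes, 1.19 for bins with a protein-coding gene, 0.771 for bins with none, and 2.68 for gene-rich over gene-poor bins, against 1.84. Bins with no protein-coding gene were at 0.844 in the GW4064 library alone and 0.807 in the vehicle library alone. Chromosome 2 over chromosome 16 gave 1.09 from all contacts and 1.06 with the same number in each bin. From all contacts 5 chromosomes changed sides of 1: chromosomes 1, 6 and 17, to 0.886, 0.966 and 1.04, and 10 and 19, whose intervals had included 1, to 0.938 and 1.29. With the same number in each bin 6 did: chromosomes 1, 7 and 18, to 0.943, 0.926 and 1.001, and 8, 10 and 19, whose intervals had included 1, to 0.986, 0.993 and 1.19. The cause was not tested. Leaving out bins with very high trans contacts, and dividing trans contacts by the share of contact ends on other chromosomes, were chosen after seeing the data. No paired analysis was possible because each group holds 1 library. With under 1 contact expected per bin in each library, depth limits statements on single bins, and intervals cover counting error only.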
